A study of Mus musculus with 12 samples.

Results

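The transcriptome of the Arid1a-mutant mouse yolk sac was compared between embryonic day 9.5 (E9.5) and E8.5. The comparison uses every array of mutant yolk sac RNA, which is 6 of the 12 arrays of the study: 3 biological replicates at E9.5 and 3 at E8.5. The mutants were homozygous for V1068G, an amino acid change in Baf250a, the protein of the Arid1a gene, and both stages carried it on a CD1 background. The other 6 arrays held wild-type yolk sacs, 3 at E9.5 and 3 at E8.5, and are used here only beside the mutant values and to estimate the spread. Whether 1 yolk sac or a pool went into a replicate is not said in the labels. RNA (500 ng) was amplified with a low-input kit, labelled with Cy5 and hybridised with a Cy3-labelled common reference RNA from neonatal mice of mixed 129Sv and C57BL/6 strains, so that each value is a log2 ratio of yolk sac over reference. Dyes were not swapped, and a gene's level is therefore given only against the same probe on other arrays.

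The yolk sac is the membrane around the early embryo in which the first blood cells form. Its outer layer, the visceral endoderm, is an absorptive epithelium that takes up maternal nutrients and secretes plasma proteins before the liver does, and its mesoderm gives rise to primitive erythroid cells, endothelium, smooth muscle and mesothelium. The Arid1a product binds DNA and belongs to SWI/SNF, a complex that uses ATP to move nucleosomes.

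Between 47.5% and 50.1% of the probes of a mutant array gave a yolk sac signal well above background. The median Cy5 brightness of these arrays lay between 43.1 and 46.8 intensity units over local backgrounds of 35 to 36.5, and the number of arrays limits the precision: the median standard error of a gene's difference was 0.0674 on the log2 scale. Per the file headers the arrays were read in 3 scans, each holding the same-numbered replicate of all 4 groups; since every group kept 1 slot on the slide, its slot and the group cannot be told apart. The identifier in the headers of the third scan repeats that of the second, although their grid names and scan times differ, so whether these were separate slides is unclear. Markers of neighbouring tissue and of sex were not evenly spread. Prl4a1, a prolactin-family gene of trophoblast, was at 0.76, 0.26 and 3.74 in mutant E9.5 replicates 1 to 3, against 0.56, 0.54 and 5.70 in mutant E8.5 replicates 1 to 3, so it stood out on the third array of both stages. Xist, a long RNA made from the silenced X chromosome in females, was at -1.75, -0.52 and -1.14 in the mutant E9.5 replicates, against -1.76, -4.01 and -4.17 in the mutant E8.5 replicates. The low values were those of mutant E8.5 replicates 2 and 3, so the sex composition moved with the stage. The Xist difference of 2.18 ± 0.63 (limma adjusted p = 0.0238) lost its call without mutant E8.5 replicate 2 (1.83) or 3 (1.75), and without mutant E9.5 replicate 2 (1.87) or 3 (2.19). Y-linked Eif2s3y was at -0.32, -1.32 and -0.90 in mutant E9.5, against -0.049, 0.12 and 0.40 in mutant E8.5.

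A total of 13895 genes were tested with limma, and a gene with an adjusted p under 0.05 was counted as changed. In the mutant, 1522 genes were higher at E9.5 than at E8.5 (11% of the genes tested) and 1475 were lower (10.6%), and for 5338 genes (38.4%) the values of the 3 E9.5 arrays and the 3 E8.5 arrays did not overlap. In bulk tissue, a change in the number of cells of a type and a change of RNA per cell cannot be told apart. On the scale used here, with an offset of 50 added to the signals, the changes were mostly small. The median size of a called difference was 0.29 on the log2 scale, and 50 genes changed by 2-fold or more, 42 higher and 8 lower. These sizes depend on the processing. With Agilent's own processed signals the median of the interferon-stimulated genes below was 1.28, against 0.45 here. That of the endoderm transcription factors was 0.030, against 0.028 here. With each array centred on its median in place of the intensity-dependent loess normalization, the median over all genes stood at 0.14 and the split was 1679 higher against 78 lower, so that most calls of lower genes rest on the loess scale. Without both mutant arrays of the third scan the calls numbered 748 higher and 684 lower. Without the arrays low in Xist, which leaves 1 mutant E8.5 array assumed to vary like the other groups, they numbered 495 higher and 348 lower. These counts are of fewer arrays, and for the gene lists below they are called the reduced sets, with the count without the third-scan arrays given before that without the low-Xist arrays. On the median-centred scale the medians of 16 of the 51 lists changed sign. With the Xist level as a covariate, 1332 of the 2996 mutant calls other than Xist itself were kept. Because Xist moved with the stage, the parts of sex and of stage in a single call cannot be told apart. The part of trophoblast tissue in single calls was not tested.

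The largest rises included those of metabolic enzymes, membrane proteins and secreted proteins. Slc27a2, a fatty acid and bile acid CoA ligase, rose by 1.93 ± 0.10 (log2 units ± SE from 3 arrays per stage; adjusted p = 7.24e-08 by limma), although its other kept probe moved by 0.28. Urah, an enzyme of uric acid breakdown, was at 0.13, 0.28 and 0.31 in mutant E9.5 and at -1.63, -1.72 and -1.61 in mutant E8.5, a difference of 1.9 ± 0.11 (adjusted p = 1.01e-07). All 3 E9.5 values of Urah lay above all 3 E8.5 values, and the second Urah probe gave 1.67. Maob, a monoamine oxidase of the mitochondrial outer membrane, rose by 1.74 ± 0.12, and Fmo1, a flavin-containing monooxygenase, by 1.44 ± 0.078. Gsn, which encodes the actin-severing protein gelsolin, Meltf, a membrane relative of transferrin, and Itm2a, a type II membrane protein, rose by 1.5, 1.34 and 1.38.

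The largest falls included those of surface proteins, kinase subunits and chromatin proteins. Cpne7, a calcium-dependent phospholipid-binding copine, was at 0.034, 0.21 and 0.29 in mutant E9.5, against 1.8, 2.17 and 2.21 in mutant E8.5, and fell by 1.88 ± 0.10 (adjusted p = 7.24e-08). Cd24a, a small glycosylphosphatidylinositol-anchored surface protein, was at -2.28, -2.65 and -2.69, against -1.69, -1.19 and -1.08, and fell by 1.22 ± 0.17. The E8.5 arrays were the higher ones for both genes, without overlap. The falls of Prss12, a serine protease, Baz1a, a subunit of ISWI chromatin remodellers, Prkar2b, a regulatory subunit of protein kinase A, and Rcc2, a chromosome-associated regulator of mitosis, measured 1.02, 0.99, 0.98 and 0.93. Slco3a1, an organic anion transporter, Amot, an angiomotin that binds YAP, and Fhl1, a LIM-domain protein, fell by 0.91, 0.90 and 0.89. Hipk2, a nuclear kinase, fell by 0.94 at its brightest probe, while its other kept probes moved by -0.05, -0.22 and -0.04.

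**Figure D1:**
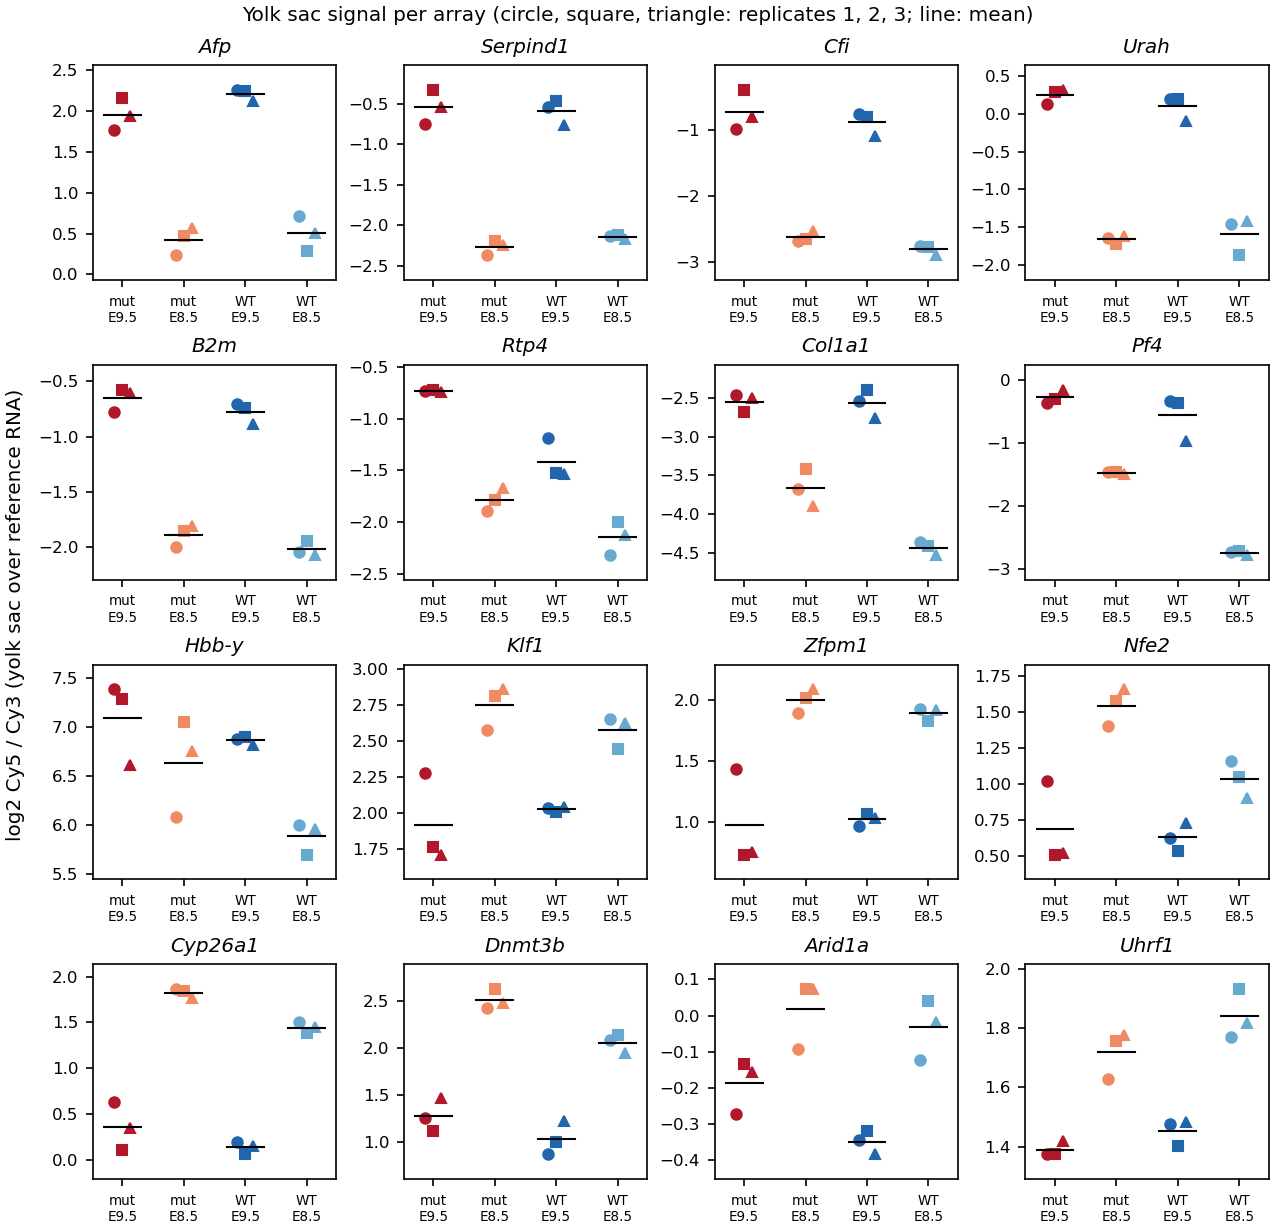
Log2 ratio of yolk sac over reference RNA on each array for 16 genes, in mutant (red) and wild-type (blue) yolk sacs at E9.5 and E8.5; symbols are replicates and lines are means of 3. Afp, for example, lies between 1.77 and 2.16 in mutant E9.5 and between 0.23 and 0.57 in mutant E8.5, while Hbb-y overlaps between the mutant stages.

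Some genes for proteins that visceral endoderm secretes rose at E9.5 in the mutant. Of 22 measured genes for plasma and carrier proteins, 9 rose and 0 fell in the wild type, with a median difference of 0.082. In the mutant 10 rose and 0 fell, with a median difference of 0.17, against -0.0083 over all genes tested. The rises numbered 8 without the third-scan arrays and 6 without the low-Xist arrays, and 8 of the 22 genes had differences below 0, none of which passed. Afp, alpha-fetoprotein, the main carrier protein of fetal plasma, was at 1.77, 2.16 and 1.93 in mutant E9.5 and at 0.23, 0.47 and 0.57 in mutant E8.5 and rose by 1.53 ± 0.11 (2.89-fold; adjusted p = 9.55e-07). Spp2, a secreted phosphoprotein, was at 2.89, 3.17 and 3.11 in mutant E9.5, against 1.76, 1.72 and 1.85 in mutant E8.5. Neither gene overlapped between the stages, and Spp2 rose by 1.28 ± 0.089. Serpinf2, the inhibitor of plasmin, and Trf, the iron carrier transferrin, rose by 1.1 ± 0.077 and 1.05 ± 0.10. Ttr, a carrier of thyroid hormone, did not pass, at 0.18 ± 0.12 (adjusted p = 0.344), and its values overlapped between the stages.

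Clotting and complement genes were among the secreted proteins that rose. Of 21 measured genes of coagulation and fibrinolysis, 15 rose (71.4%) and 0 fell, with a median of 0.46, and 11 rose in the wild type, with a median of 0.31. Serpind1, heparin cofactor II, which inhibits thrombin, was at -0.74, -0.33 and -0.53 in mutant E9.5 and at -2.37, -2.19 and -2.25 in mutant E8.5, and rose by 1.74 ± 0.10 (3.34-fold; adjusted p = 7.24e-08). The 3 fibrinogen chain genes did not move by the same amount: Fgg rose by 1.16 ± 0.088, Fga by 1.05 ± 0.090 and Fgb by 0.46 ± 0.095. F2, prothrombin, rose by 0.56 ± 0.058. Of 16 complement genes, 5 rose (31.2%, against 11% of all genes) and 0 fell. Cfi, the protease that cleaves C3b and C4b, was at -0.99, -0.40 and -0.80 in mutant E9.5, against -2.68, -2.65 and -2.53 in mutant E8.5, a rise of 1.89 ± 0.12 (adjusted p = 3.02e-07). Cfb, the protease of the alternative pathway, rose by 1.03 ± 0.061 and C2 by 0.61 ± 0.10, while C3 itself did not pass, at -0.16 ± 0.092 (adjusted p = 0.256).

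Genes of lipid transport and of absorption rose in part. Among 26 measured genes of apolipoproteins and lipid transport there were 10 rises and 1 fall, and the rises numbered 3 without the third-scan arrays and 4 without the low-Xist arrays. Apoa4, an apolipoprotein of chylomicrons and high-density lipoprotein, was at 1.16, 1.28 and 1.33 in mutant E9.5, against 0.15, 0.31 and 0.25 in mutant E8.5, and rose by 1.02 ± 0.10. Apoa1, the main protein of high-density lipoprotein, rose by 0.62 ± 0.072. The gene that fell was Apoc2, the activator of lipoprotein lipase, at 1.29, 1.68 and 1.57 in mutant E9.5 and 2.11, 2.06 and 2.03 in mutant E8.5, a fall of 0.55 ± 0.083. Of 29 solute carriers of absorptive epithelia, 15 rose and 2 fell (median 0.21; 10 and 5 rose without the third-scan and the low-Xist arrays), led by Slc51a, a subunit of the basolateral bile acid and steroid transporter, at 1.16 ± 0.086, Slc5a4b, of the sodium-glucose cotransporter family, at 0.62 ± 0.063, and Slc7a9, a cystine and dibasic amino acid transporter subunit, at 0.59 ± 0.10.

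The 3 uptake receptors taken to define visceral endoderm did not pass. Of 19 measured endocytic genes, 8 rose and 0 fell, and 3 rose under each of the reduced sets of arrays. Cubn, cubilin, the receptor of intrinsic factor and apolipoprotein A-I, was at 5.05, 5.37 and 5.26 in mutant E9.5 and 5.2, 5.36 and 5.09 in mutant E8.5. Its partners Amn, amnionless, and Lrp2, megalin, differed by 0.028 ± 0.079 and -0.018 ± 0.11, and Cubn by 0.010 ± 0.094, with adjusted p-values of 0.853, 0.934 and 0.958. The largest rise of the list was that of Fcgrt, the neonatal Fc receptor that carries IgG across epithelia, at -0.19, 0.0092 and -0.14 in mutant E9.5 against -1.22, -1.02 and -0.97 in mutant E8.5 (0.96 ± 0.074; adjusted p = 1.14e-06). Stab2, a scavenger receptor for hyaluronan, rose by 0.64 ± 0.091. Of 28 lysosomal genes, 12 rose and 2 fell, and 5 rose under each reduced set (median 0.19; 18 rose and 0 fell in the wild type, median 0.33). Glb1, beta-galactosidase, rose by 0.39 (other probe 0.03), and Ctsh, cathepsin H, fell by 0.57 ± 0.14. The Ctsh call was lost on Agilent's processed signals, on the authors' deposited table, with median centring and with Xist as a covariate.

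Transcription factors of the endoderm changed in both directions. Of 18 measured factors and signals, 4 rose (22.2%, against 11% of all genes) and 2 fell (11.1%, against 10.6%), with a median of 0.03. Hnf4a, a nuclear receptor that specifies visceral endoderm function, was at 2.05, 2.09 and 2.26 in mutant E9.5 and 2.13, 2.12 and 2.06 in mutant E8.5, and did not pass (adjusted p = 0.840). Nr1h4, the bile acid receptor, rose by 0.51 ± 0.065, and the SOX-F factors Sox7 and Sox17, of endoderm and endothelium, fell by 0.44 ± 0.059 and 0.40 ± 0.082.

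Some metabolic and iron genes also changed. Of 25 measured detoxification enzymes, 10 rose and 2 fell, with 4 and 3 rises without the third-scan and the low-Xist arrays. Cyp2s1, a cytochrome P450 of epithelia, was at 1.66, 1.85 and 2.05 in mutant E9.5 and 0.68, 0.73 and 0.58 in mutant E8.5, and rose by 1.19 ± 0.093. Gstm1, a glutathione transferase, rose by 0.65 ± 0.094, and Txnrd1, thioredoxin reductase, fell by 0.35 ± 0.062. In iron handling, Slc40a1, the iron exporter ferroportin, rose by 0.53 ± 0.069, and Fth1, ferritin heavy chain, was at -0.45, -0.50 and -0.45 in mutant E9.5 against 0.13, 0.12 and 0.13 in mutant E8.5, a fall of 0.59 ± 0.049 (adjusted p = 2.31e-06). Of 33 genes of glycolysis and the hypoxia response, 2 rose (6.06%) and 5 fell (15.2%), against 11% and 10.6% of all genes. Without the third-scan arrays 4 fell, and with median centring 1 fell. Hk2 and Hk1, the hexokinases that start glycolysis, were among the 5 and fell by 0.77 ± 0.12 and 0.56 ± 0.10. The other Hk1 probes moved by -0.15 and -0.09. Of 25 respiratory chain genes, 2 rose (8%) and 1 fell (4%), shares below those of all genes.

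Retinoid genes changed in both directions. Of 13 measured, 3 rose (23.1%) and 2 fell (15.4%), against 11% and 10.6% of all genes. Cyp26a1, which breaks down retinoic acid, was at 0.63, 0.10 and 0.35 in mutant E9.5, against 1.87, 1.84 and 1.77 in mutant E8.5, and fell by 1.47 ± 0.10 (adjusted p = 3.41e-07). Its values did not overlap between the stages. Dhrs3, which returns retinaldehyde to retinol, rose by 0.44 ± 0.066, and Rdh10, which makes retinaldehyde, fell by 0.35 ± 0.077. Aldh1a2, which makes retinoic acid, was at -1.54, -1.46 and -1.33 in mutant E9.5 and -1.43, -1.39 and -1.47 in mutant E8.5 and did not pass (adjusted p = 0.980).

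Many connective tissue genes rose. Of 30 measured genes of fibrillar collagens and interstitial matrix, 17 rose (56.7%) and 0 fell, with a median of 0.28 in the mutant and 0.28 in the wild type. Without both mutant arrays of the third scan 12 rose, and without the arrays low in Xist 11 rose. Col1a2, a chain of type I collagen, was at -1.62, -1.9 and -1.77 in mutant E9.5 and -3.09, -2.74 and -3.16 in mutant E8.5 and rose by 1.23 ± 0.12 (adjusted p = 8.3e-06). Col1a1, the other type I chain, was at -2.46, -2.68 and -2.49 in mutant E9.5, against -3.68, -3.42 and -3.89 in mutant E8.5, and rose by 1.12 ± 0.11. Both chains were higher on every E9.5 array. Col5a1, of type V collagen, and Col3a1, of type III collagen, rose by 0.99 ± 0.10 and 0.73 ± 0.081. Dimmer kept probes of these genes gave smaller differences: 0.23 for Col1a2, 0.85 and 0.20 for Col1a1, 0.20 for Col5a1 and 0.13 for Col3a1.

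Of 16 genes of mesothelium and simple epithelial keratins, 7 rose and 0 fell, and 3 rose under each reduced set of arrays. Krt7, a keratin of simple epithelia, was at -0.19, 0.25 and 0.49 in mutant E9.5 and -1.64, -1.52 and -1.02 in mutant E8.5 (1.58 ± 0.16), and Upk3b, a mesothelial membrane protein, rose by 1.07 ± 0.080. Wt1, a transcription factor of mesothelium, did not pass, at -0.10 ± 0.057 (adjusted p = 0.257). Basement membrane genes rose in 6 of 15 cases, but in 1 without the third-scan arrays and in 1 without the low-Xist arrays, led by Lamb2, laminin beta 2, at 0.39 ± 0.061. Of 25 smooth muscle and mesenchyme genes, 3 rose (12%) and 2 fell (8%), shares near those of all genes (11% and 10.6%). Tagln, transgelin of smooth muscle, rose by 0.81 ± 0.16, and Hand1, a factor of extraembryonic mesoderm, fell by 0.36 ± 0.081. The Tagln call was lost with Xist as a covariate. The Hand1 call was lost on Agilent's processed signals, on the authors' deposited table and with median centring.

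The defining endothelial genes did not pass. Kdr, the main receptor of VEGF, Cdh5, the cadherin of endothelial junctions, and Pecam1, an adhesion protein, differed by -0.11 ± 0.072, -0.13 ± 0.064 and 0.070 ± 0.046, with adjusted p-values of 0.312, 0.172 and 0.320. Of 33 endothelial genes, 5 rose (15.2%) and 4 fell (12.1%), against 11% and 10.6% of all genes. Without the third-scan arrays 2 rose and 4 fell. Apln, apelin, a peptide of sprouting vessels, was at -0.28, -0.32 and -0.18 in mutant E9.5, against 1.16, 0.68 and 0.74 in mutant E8.5, and fell by 1.12 ± 0.12 (adjusted p = 2.71e-05), with its second probe at -1.35. Robo4, a guidance receptor of vessels, and Esm1, of endothelial tip cells, rose by 0.53 and 0.53. Of 19 Notch, arterial and venous genes, 1 rose (5.26%) and 2 fell (10.5%), shares not above those of all genes. The gene that rose was Cxcl12, a chemokine of stroma and vessels (0.70 ± 0.15, other probe 0.18). Of the 2 that fell, 1 was Rbpj, the DNA-binding partner of Notch, which fell by 0.32 ± 0.061. The other, Unc5b, a netrin receptor of vessels, lost its call without any 1 of the 6 mutant arrays, with values of -0.25 to -0.18. Notch1, Dll4 and Efnb2 did not pass, with differences of 0.044, -0.051 and -0.037 and adjusted p-values of 0.653, 0.642 and 0.852.

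Most listed transcription factors of erythroid cells were lower at E9.5. Of 14 measured genes, 11 fell (78.6%) and 0 rose. The list also holds Epor, the erythropoietin receptor, which is not a transcription factor and is among those that fell (-0.60). The median was -0.54, the lowest of any list with 10 or more measured members. In the wild type the median was -0.44, and 9 fell and 1 rose. With median centring 5 of the 14 were called lower and 2 higher in the mutant, and the list's median lay 0.53 below that of all genes. Without both mutant arrays of the third scan 10 fell, and without the arrays low in Xist 4 fell. Zfpm1, FOG1, the cofactor of GATA1, was at 1.43, 0.74 and 0.75 in mutant E9.5, against 1.89, 2.02 and 2.09 in mutant E8.5, and fell by 1.03 ± 0.13 (adjusted p = 0.000126). Nfe2, a factor of globin genes, was at 1.02, 0.51 and 0.52, against 1.4, 1.58 and 1.66, and fell by 0.86 ± 0.12. Klf1, which activates adult beta-globin, was at 2.28, 1.77 and 1.71 in mutant E9.5, against 2.58, 2.81 and 2.86 in mutant E8.5, and fell by 0.83 ± 0.12. For each of these 3 genes mutant E9.5 replicate 1 was the highest of the E9.5 arrays and mutant E8.5 replicate 1 the lowest of the E8.5 arrays, without overlap between the stages. Gata1, the central erythroid factor, and Tal1, needed for blood formation, fell by 0.49 ± 0.063 and 0.69 ± 0.12.

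None of the 3 measured embryonic and 2 measured adult globin genes passed. Hbb-y, an embryonic beta-like globin, was at 7.39, 7.28 and 6.61 in mutant E9.5 and 6.08, 7.05 and 6.75 in mutant E8.5, so that the stages overlapped, with a difference of 0.46 ± 0.21 (adjusted p = 0.140). Hba-x, embryonic zeta-globin, was at 4.79, 4.69 and 4.65 in mutant E9.5 and 4.57, 4.98 and 4.72 in mutant E8.5, and Hbb-bh1, the other embryonic beta-like globin, differed by -0.064 ± 0.12. In haem synthesis and erythroid iron uptake 5 of 14 genes fell and 0 rose, but 1 fell without the third-scan arrays, 0 without the low-Xist arrays, 0 with median centring and 2 on Agilent's processed signals. Cpox, coproporphyrinogen oxidase, was at 1.87, 1.45 and 1.31 in mutant E9.5, against 2.17, 2.38 and 2.35 in mutant E8.5, and fell by 0.76 ± 0.12. Alas2, the erythroid enzyme of the first step, did not pass, at 0.14 ± 0.15 (adjusted p = 0.579).

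Of 23 measured genes of the red cell membrane and enzymes, 3 rose and 6 fell, but 0 fell without the third-scan arrays, without the low-Xist arrays or with median centring, where the list's median changed sign, and 2 and 0 rose in the reduced sets. On all arrays the 3 rises were 13% and the 6 falls 26.1% of the list, against 11% and 10.6% of all genes. Ank1, ankyrin of the red cell skeleton, and Blvrb, biliverdin reductase B, fell by 0.53 ± 0.11 (other Ank1 probes -0.45 and -0.11) and 0.54 ± 0.13. Slc4a1, the anion exchanger band 3, did not pass, at -0.12 ± 0.15 (limma adjusted p = 0.644). Of 18 blood progenitor genes, 4 fell and 0 rose, with 3 and 1 falls in the reduced sets, 0 with median centring and a median that changed sign there. On all arrays the 4 falls were 22.2% of the progenitor list, against 10.6% of all genes. Lyl1, a relative of Tal1, was at 1.29, 0.78 and 0.87 in mutant E9.5, against 1.55, 1.89 and 1.86 in mutant E8.5. It fell by 0.79 ± 0.11. Csf2rb, the common beta chain of myeloid cytokine receptors, fell by 0.65 ± 0.13, though its other kept probe moved by -0.05. Runx1, needed for definitive blood, was at 0.33, 0.37 and 0.32 in mutant E9.5 and 0.38, 0.42 and 0.30 in mutant E8.5 and did not pass (adjusted p = 0.812).

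Of 15 measured genes of megakaryocytes, 7 rose and 0 fell, against 12 that rose in the wild type. Pf4, a platelet chemokine, was at -0.36, -0.29 and -0.15 in mutant E9.5, against -1.45, -1.46 and -1.49 in mutant E8.5, and rose by 1.2 ± 0.12 (2.30-fold; adjusted p = 1.38e-05). Ppbp, another platelet chemokine, was not well above background on any mutant E8.5 array, and was at least 1.90-fold higher at E9.5 (adjusted p = 4.85e-06). Clec1b, the podoplanin receptor of platelets, and Treml1, of platelet granules, rose by 0.50 ± 0.082 and 0.48 ± 0.082. Macrophage and myeloid genes that rose made up 16.7% of their list, against 11% of all genes. Of 18 macrophage and myeloid genes, 3 rose (0 and 2 in the reduced sets) and 0 fell, and the defining markers Csf1r, Tyrobp and Fcer1g did not pass, at 0.13, 0.083 and 0.11, with adjusted p-values of 0.250, 0.378 and 0.220.

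**Figure D2:**
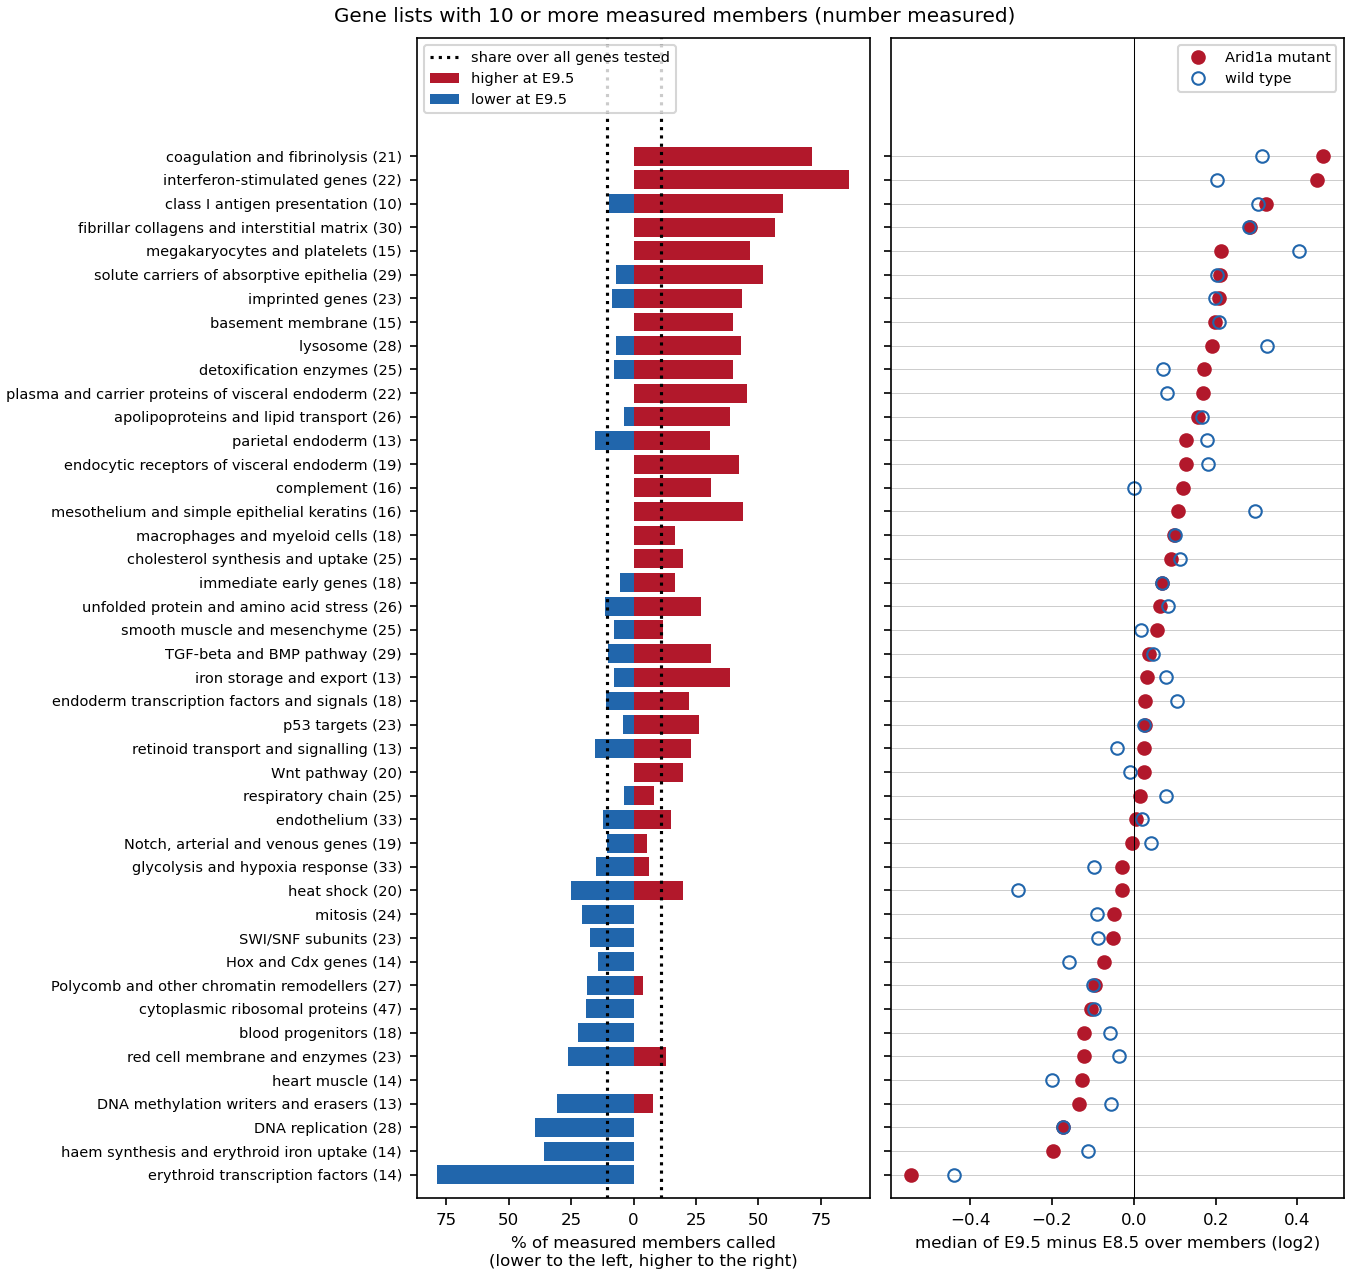
Left, percent of each list's measured members called higher (red) or lower (blue) at E9.5 in the mutant, with dotted lines at the shares over all genes tested (11% and 10.6%); right, the median log2 difference in mutant (filled) and wild type (open). Interferon-stimulated genes have the highest share of rises (86.4%). The list of erythroid transcription factors, which also holds the receptor gene Epor, has the highest share of falls (78.6%).

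Most interferon-stimulated genes rose. Of 22 measured, 19 rose (86.4%) and 0 fell, with a median of 0.45, and in the wild type 10 of the 22 rose, with a median of 0.20. The mutant count was 12 without both mutant arrays of the third scan, and 11 without the arrays low in Xist. Rtp4, a receptor-transporting protein induced by interferon, was at -0.73, -0.72 and -0.74 in mutant E9.5, against -1.89, -1.78 and -1.67 in mutant E8.5, and rose by 1.05 ± 0.10 (adjusted p = 5.55e-06). Bst2, tetherin, was at 0.44, 0.43 and 0.29 in mutant E9.5, against -0.47, -0.66 and -0.53 in mutant E8.5, and rose by 0.94 ± 0.095. Isg15, a ubiquitin-like modifier, was at -0.21, 0.080 and -0.065 in mutant E9.5, against -0.75, -0.91 and -0.65 in mutant E8.5, and rose by 0.70 ± 0.081. In each case all E9.5 values lay above all E8.5 values. Igtp, an immunity-related GTPase, and Oasl2, of the oligoadenylate synthetase family, rose by 0.79 ± 0.083 and 0.69 ± 0.090. The difference between mutant and wild type was tested for each gene and no member passed. For Oasl2 the changes were 0.69 in the mutant and 0.15 in the wild type (unadjusted p = 0.000781; adjusted p = 0.322), and for Isg15 0.70 and 0.34 (adjusted p = 0.587). In class I antigen presentation 6 of 10 genes rose and 1 fell, with 2 rises without the third-scan arrays, 2 without the low-Xist arrays and 2 on Agilent's processed signals. B2m, the invariant light chain of class I molecules, was at -0.78, -0.58 and -0.61 in mutant E9.5, against -2.0, -1.86 and -1.81 in mutant E8.5, and rose by 1.23 ± 0.072 (2.35-fold), with its other probes at 1.09 and 0.29, and H2-K1, a class I heavy chain, rose by 0.58 ± 0.078, with its other probes at 0.24 and 0.10.

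The interferon-stimulated response element is the promoter sequence that the factor ISGF3 recognises. The letters GAAA, any 2 bases and GAAA, were searched on both strands of RefSeq promoters (build GRCm38.p6, 250 bases before to 50 after each gene's start). They were present for 12 of the 15 listed interferon-stimulated genes that rose and have a promoter in the table (80%), against 3.27% of all tested genes with one. For the measured genes of the list, risen or not, the count was 13 of 18 (72.2%). The list holds genes picked as interferon-stimulated, so a high share follows from that choice and does not bear on the rise. Among all genes that rose the share was 4.62%, and among all that fell 2.77%. A match is a description of the letters and not evidence of binding. The windows below show these letters in capitals for 4 genes described above, read 5′ to 3′ on the strand of the gene. They lie at chr4:156200856-156200915 on the minus strand for Isg15, with the first capital 72 bases before the start and an overlapping match on each side, and at chr8:71537562-71537621 on the minus strand for Bst2, 124 bases before the start and overlapping another match. For Igtp the window is chr11:58199497-58199555 on the plus strand, 34 bases before the start, and for B2m it is chr2:122147523-122147582 on the plus strand, 139 bases before it.
Isg15: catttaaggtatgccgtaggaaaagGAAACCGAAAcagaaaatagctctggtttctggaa
Bst2: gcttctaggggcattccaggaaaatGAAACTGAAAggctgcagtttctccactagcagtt
Igtp: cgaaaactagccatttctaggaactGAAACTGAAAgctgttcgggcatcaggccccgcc
B2m: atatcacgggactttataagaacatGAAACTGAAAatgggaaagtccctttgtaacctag

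**Figure D3:**
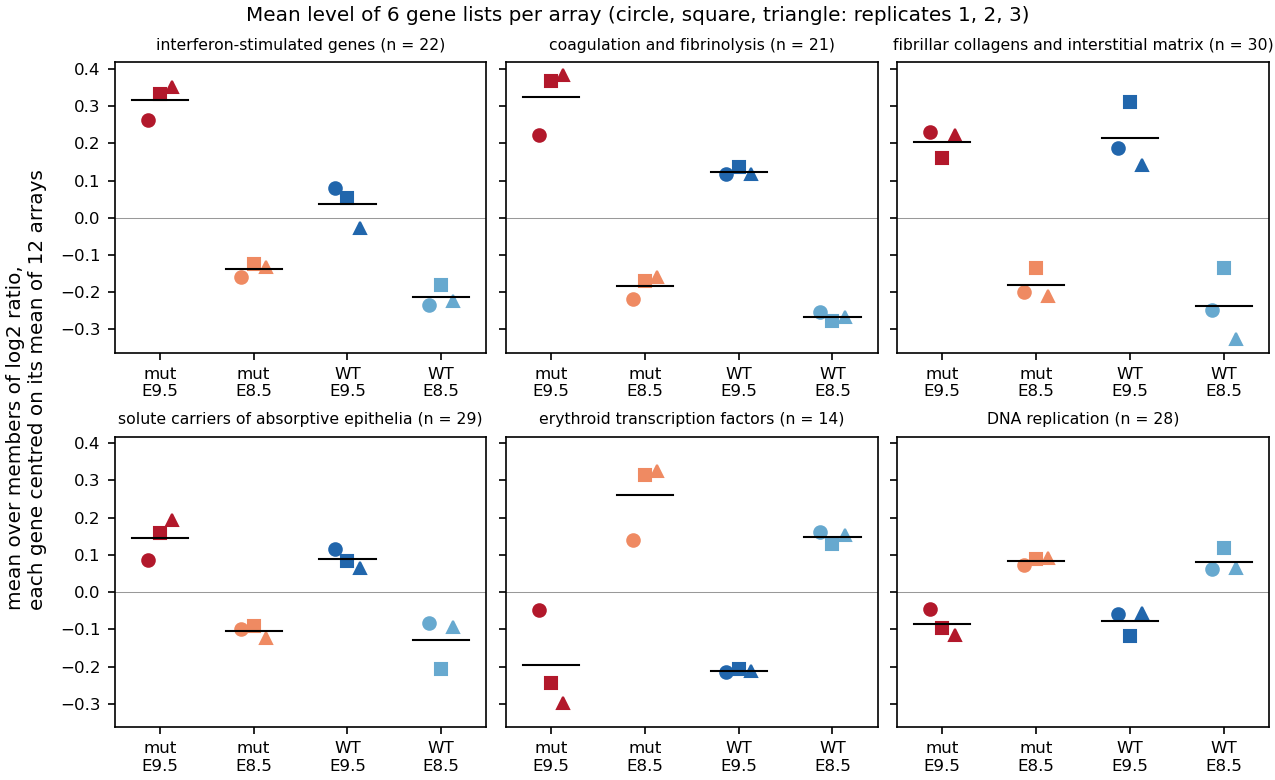
Mean over the measured members of 6 gene lists on each array, after centring each gene on its mean over the 12 arrays, in mutant (red) and wild-type (blue) yolk sacs at E9.5 and E8.5; symbols are replicates and lines are group means. Interferon-stimulated genes average 0.26 to 0.35 in mutant E9.5 and -0.16 to -0.12 in mutant E8.5, and for erythroid transcription factors mutant E9.5 replicate 1 (-0.05) lies above the other E9.5 arrays.

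Some cell cycle genes fell at E9.5. Of 28 measured DNA replication genes, 11 fell (39.3%) and 0 rose, with a median of -0.17 in the mutant and -0.17 in the wild type. Without both mutant arrays of the third scan 7 fell, and without the arrays low in Xist 3 fell. Mcm3, a subunit of the replicative helicase, was at 1.97, 1.87 and 1.87 in mutant E9.5, against 2.3, 2.39 and 2.39 in mutant E8.5, and fell by 0.46 ± 0.058 (adjusted p = 8.68e-05). Cdc6, which loads the helicase, and Mcm4 fell by 0.48 ± 0.067 and 0.41 ± 0.071. The E8.5 arrays were higher throughout. Pcna, the sliding clamp, did not pass, at -0.18 ± 0.086 (adjusted p = 0.164). With median centring 1 of the 28 was called lower, and the list's median changed sign to 0.054, which is 0.09 below that of all genes. Of 24 mitotic genes, 5 fell and 0 rose, but 0 fell with median centring, where the median changed sign, and 1 without the low-Xist arrays. On all arrays the 5 falls were 20.8% of the mitotic list, against 10.6% of all genes. For the ribosomal protein genes below the share was 19.1%. Among the 5 mitotic genes was Bub1, a checkpoint kinase, which fell by 0.28 ± 0.051. Mki67 and Top2a did not pass, at -0.18 and -0.13 (limma adjusted p = 0.247 and 0.151). Of 47 cytoplasmic ribosomal protein genes, 9 fell and 0 rose (4 and 2 fell in the reduced sets and 0 with median centring), with a median of -0.10, a direction that flips with median centring, where their median lay 0.03 above that of all genes.

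The letters GGCGGGAA, on either strand, match sites of E2F factors, which control replication genes. They were present for 5 of 22 listed DNA replication genes with a promoter in the table (22.7%). The shares were 4.67% of the genes tested, 4.36% of all that rose and 6.73% of all that fell. The list holds genes picked for replication, so a high share follows from that choice and does not bear on the fall. A match is not evidence of binding. Also searched were a different E2F site, a GATA site and an HNF1 site. That E2F site matched 1.06% of genes tested, 0.523% that rose and 1.66% that fell. In that order, the GATA site matched 2.43%, 3.14% and 1.94%, and the HNF1 site 0.377%, 1.13% and 0.185%. The GATA site matched 2 of 9 fallen genes of the erythroid factor list and 1 of 3 fallen haem genes. The HNF1 site matched 2 of 9 plasma protein, 0 of 10 coagulation and 0 of 8 lipid transport genes that rose. The GGCGGGAA match of Uhrf1, which guides DNA methylation to replicated DNA, is shown because Uhrf1 fell and belongs to both the replication and the methylation lists. It starts 48 bases before the gene's start in the window chr17:56303264-56303321 on the plus strand, in capitals, and reads on the other strand.
Uhrf1: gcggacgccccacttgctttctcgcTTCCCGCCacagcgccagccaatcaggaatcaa

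Some chromatin genes fell at E9.5. Dnmt3b, a de novo DNA methyltransferase, was at 1.25, 1.12 and 1.46 in mutant E9.5, against 2.43, 2.63 and 2.49 in mutant E8.5, and fell by 1.24 ± 0.10 (adjusted p = 1.59e-06). Lin28b, an RNA-binding protein that blocks let-7 maturation and stood in the same list, was at 0.40, 0.32 and 0.46, against 1.25, 1.29 and 1.27, and fell by 0.88 ± 0.064. Uhrf1 fell by 0.33 ± 0.059, and Dnmt1, the maintenance methyltransferase, did not pass, at -0.17 ± 0.072 (adjusted p = 0.114). Of the 13 measured genes of this list, named for DNA methylation, 1 rose (7.69%) and 4 fell (30.8%). Those that fell include Lin28b, which is not a gene of DNA methylation. Of 27 genes of Polycomb and other remodellers, 1 rose (3.7%) and 5 fell (18.5%). Over all genes 11% rose and 10.6% fell. With median centring both lists' medians changed sign, 2 genes of the first list fell, and 2 Polycomb or remodeller genes rose and 1 fell. In the reduced sets 4 and 2 genes of the first list fell, and 4 and 1 of the second. Chd7, a chromodomain remodeller, fell by 0.76 ± 0.12 and Ezh2, the Polycomb methyltransferase, by 0.27 ± 0.067, and Smarca1, an ISWI ATPase, rose by 0.58 ± 0.078.

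Arid1a and 3 other subunits of its complex passed, with small falls. Arid1a itself was at -0.27, -0.13 and -0.16 in mutant E9.5, against -0.093, 0.074 and 0.073 in mutant E8.5, and at -0.34, -0.32 and -0.38 in wild-type E9.5, against -0.12, 0.040 and -0.016 in wild-type E8.5. The stage difference was -0.21 ± 0.064 in the mutant (adjusted p = 0.0333) and -0.32 in the wild type, and their difference did not pass (unadjusted p = 0.240). The mutant call was lost without mutant E8.5 replicate 2 (-0.18) or 3 (-0.18), and without mutant E9.5 replicate 1 (-0.16) or 3 (-0.22). It was also lost with Xist as a covariate and without both mutant arrays of the third scan, and with median centring the difference was 0.0039. A point mutation leaves the transcript in place, so these levels do not check the genotype. Of 23 measured SWI/SNF subunits, 4 fell (17.4%) and 0 rose, whereas 2 rose and 1 fell with median centring, where the median changed sign, and 2 and 1 fell in the reduced sets. Over all genes tested 10.6% fell and 11% rose. Bcl7a and Phf10, accessory subunits, fell by 0.48 ± 0.077 and 0.46 ± 0.081. Smarcb1, a core subunit, did not pass, at -0.13 ± 0.055 (limma adjusted p = 0.120).

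Of 29 genes of the TGF-beta and BMP pathways, 9 rose and 3 fell, with 3 and 2 rises in the reduced sets of arrays. On all arrays the shares of this list were 31% higher and 10.3% lower, against 11% and 10.6% of all genes. For the Wnt, p53, stress and cholesterol lists below, 20%, 26.1%, 26.9% and 20% rose. Those that fell were 0%, 4.35%, 11.5% and 0%, so no share of falls was far above that of all genes. Tgfbi, a matrix protein induced by TGF-beta, rose by 0.81 ± 0.093. The inhibitory Smads, Smad7 and Smad6, fell by 0.34 ± 0.064 and 0.31 ± 0.066. Of 20 Wnt pathway genes, 4 rose (2 and 0 in the reduced sets) and 0 fell, and the Wnt target Axin2 did not pass (adjusted p = 0.854). Of 23 p53 targets, 6 rose (5 and 1 in the reduced sets) and 1 fell, led by Pmaip1, the BH3-only protein Noxa, at 0.66 ± 0.073. Of 26 genes of the unfolded protein and amino acid stress responses, 7 rose and 3 fell (5 and 4 rises in the reduced sets): Dnajb9 and Herpud1, of the endoplasmic reticulum, rose by 0.49 (other probes 0.29 and 0.14) and 0.49, Asns, asparagine synthetase, fell by 0.55, and Hspa5, the chaperone BiP, did not pass (adjusted p = 0.569). Of 25 cholesterol genes, 5 rose (2 and 1 in the reduced sets) and 0 fell.

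Imprinted genes rose in 10 of 23 cases and fell in 2, with 4 rises in each reduced set. Plagl1, a zinc finger factor expressed from the paternal allele, was at -1.04, -1.48 and -1.19 in mutant E9.5, against -2.14, -2.14 and -2.37 in mutant E8.5, and rose by 0.98 ± 0.10, with its other probe at 0.33. Cdkn1c, a maternally expressed inhibitor of the cell cycle, was at 0.56, 0.54 and 0.69 in mutant E9.5, against -0.46, -0.18 and -0.0084 in mutant E8.5, and rose by 0.82 ± 0.11. Igf2, a paternally expressed growth factor, did not pass, at 0.21 ± 0.074 (adjusted p = 0.0574). Of 14 measured Hox and Cdx genes, whose median changed sign with median centring, 2 fell (14.3%, against 10.6% of all genes) and 0 rose. Hoxb6 fell by 0.51 ± 0.071 (other probe 0.06) and Hoxb2 by 0.39 ± 0.10 (other probe -0.09).

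Of the 6 measured trophoblast, 4 decidual and maternal leukocyte, 5 neural and 14 heart genes, 0 passed, and Prl2c2, Tpbpa, Sox2 and Pax6 were not measured above the filter. After centring each gene on its mean over the arrays, the trophoblast genes averaged -0.16, -0.35 and 1.1 in mutant E9.5 replicates 1 to 3, against -0.47, -0.51 and 1.26 in mutant E8.5 replicates 1 to 3, so the third array of each stage stood apart. Of 3 somite, limb and allantois genes, Pitx1 rose, by 0.60 ± 0.12. Of 13 parietal endoderm genes, 4 rose (0 in each reduced set) and 2 fell, several of them shared with the basement membrane list. The parietal endoderm shares on all arrays were 30.8% higher and 15.4% lower, against 11% and 10.6% of all genes. The defining markers Afp, Ttr, Lrp2, Cubn and Amn of visceral endoderm were well above background on every mutant array. So were Gata1, Klf1, Hbb-y and Hba-x of primitive erythroid cells.

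Many of the same genes were called in the wild type. It had 1783 genes higher at E9.5 (12.8%) and 1525 lower (11%), and 2058 genes were called in both genotypes in the same direction, which is 68.7% of the mutant's calls and 62.2% of the wild type's. Of the 2997 mutant calls, 2923 had the same sign in the wild type (97.5%, against 76.6% of all genes). The 2 stage comparisons share no yolk sac sample, but they share the reference RNA, the array positions' fixed order and 1 estimate of the spread.

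**Figure D4:**
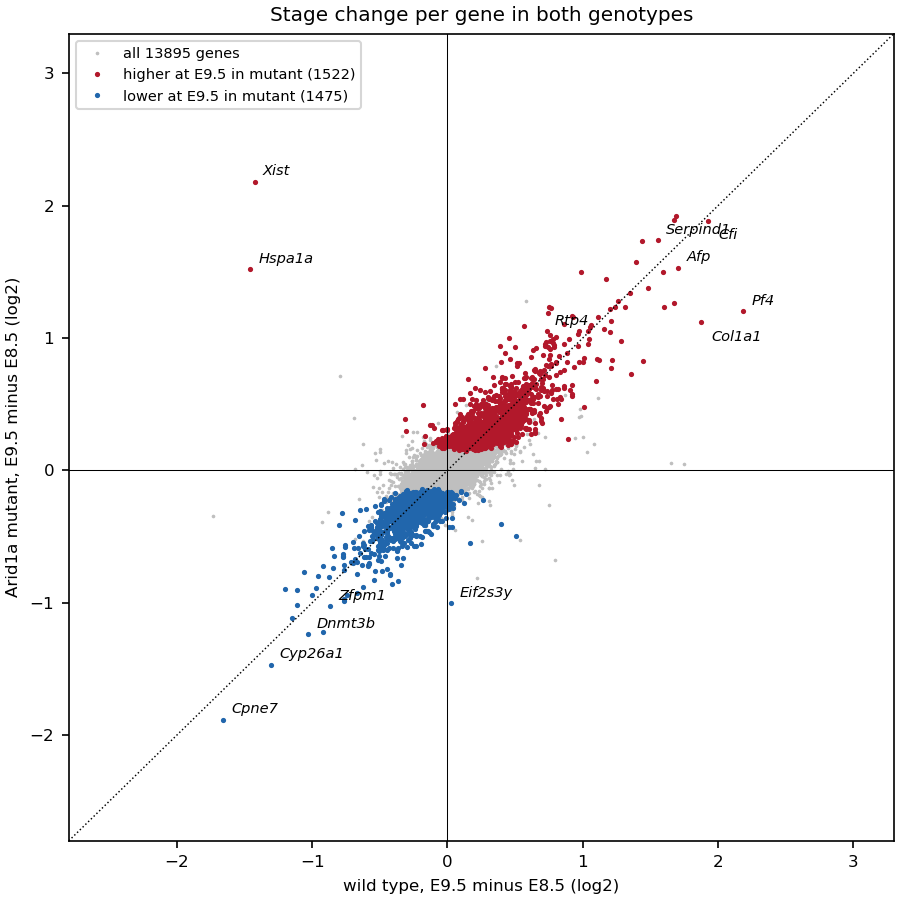
Each point is a gene, with the log2 stage difference (E9.5 minus E8.5) of the Arid1a mutant on the vertical axis and that of wild-type yolk sacs on the horizontal axis; red and blue mark the 1522 and 1475 genes called in the mutant, and the dotted line marks equal change. Of the called genes 97.5% have the same sign in both genotypes, and Xist (2.18 against -1.43) and Hspa1a (1.52 against -1.46) lie far from that line.

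No gene passed the test of the difference itself in the fit without pairing, and 1 did with the replicate block. The limma contrast of the mutant's stage change against the wild type's called 0 of 13895 genes (0%), with 795 at an unadjusted p under 0.05 (5.72%). Some genes with a small unadjusted p, chosen after their values were seen, are given as values. The gene called with the block was Plekhd1, of the pleckstrin homology domain family, with a limma adjusted p of 0.0392 for the difference, and of 0.112 without the block. Its probe was not well above background on any mutant E8.5 array, so its mutant change is a bound, at least 1.18-fold higher at E9.5, and the mutant call was lost without mutant E8.5 replicate 1 or 3 or mutant E9.5 replicate 2 (fitted values 0.20, 0.25 and 0.16) and in both reduced sets, while Agilent's processed signals gave a fitted value of 2.6. Pf4 changed by 1.2 in the mutant and 2.19 in the wild type (adjusted p = 0.162), and was at -1.45, -1.46 and -1.49 in mutant E8.5, against -2.73, -2.7 and -2.77 in wild-type E8.5. Col3a1 and Col1a1 changed by 0.73 and 1.12 in the mutant, and by 1.35 and 1.87 in the wild type, with adjusted p-values of 0.162 and 0.266 for the difference. Oas1a, an oligoadenylate synthetase induced by interferon, differed between stages by 0.50 in the mutant and 0.059 in the wild type (adjusted p = 0.162).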

How the data were processed

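Each array held 45018 spots, 1639 of them controls, for 41174 probes. The authors' scanner files give spot and background intensity of both dyes, made with Agilent Feature Extraction 9.5.1.1, per the file headers. Its log10 ratio of processed Cy5 over Cy3 is also in the deposited files, as are spot flags. The authors' deposited series table holds log2 ratios that were centred per probe; its 19007 transcript probes served as an alternative. No build for the probes is given in the sources used here.

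Here the mean signals were background-corrected (normexp, offset 50) and loess-normalized within arrays with limma 3.58.1 in R 4.3.3, with weight 0 for controls. Outlier spots, and spots over 20 units below their local background, were set to missing. Spots of a probe were averaged, and a probe was kept if any group had Cy5 flagged as well above background on each of its 3 arrays, which left 20065 probes. The probe with the highest mean intensity stood for its gene. Several kept probes were available for 1152 of the genes called in the mutant. For 667 of these (57.9%), another probe had a difference of equal sign and 50% or more of the size. The rest had no such second probe. RefSeq named 23477 probes by accession, 6678 by current symbol and 2887 by older symbol, and 8132 kept the files' own name. A limma fit of 4 group means on 12 arrays gave the stage change in each genotype and their difference, with Benjamini-Hochberg adjustment over 13895 genes. The fit was tested on simulated data. Some genes and the results that need them are not reported here. The p-values set a difference against the spread between these few arrays, estimated from all 4 groups together.

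Genes named are the 15 largest rises and falls that passed without overlap, the 3 largest each way in each list, 3 defining genes per list, and Arid1a. The members and the 51 lists were chosen with earlier results of these data known. Replicate numbers coincide with the scans, per the file headers, and deviations of same-numbered mutant arrays correlated at 0.189, 0.23 and 0.285, so the numbers were taken to pair the samples. The counts given are from the fit without this block, as planned, and the block is an alternative. Alternatives covered background correction, centring, filters, probe choice, samples fitted, the replicate block, array weights, Xist and left-out arrays.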

Additional observations from a re-analysis of the deposited data

Results flagged for a closer look

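For 3 genes with an official symbol the stage change was called in both genotypes in opposite directions and was opposite in every scan, while the difference itself did not pass; with genes that have no such symbol there were 4 of 13895. Hspa1a, an inducible heat shock chaperone, was at 0.44, -0.12 and -1.0 in mutant E9.5 and -1.35, -2.0 and -1.9 in mutant E8.5, a difference of 1.52 in the mutant and -1.46 in the wild type (limma adjusted p of the difference 0.266). Its mutant call was lost without mutant E8.5 replicate 2 (1.40) or 3 (1.45), and without mutant E9.5 replicate 1 (1.19) or 2 (1.47). Median centring and an Xist covariate also removed it. Rbm6, an RNA-binding protein, differed by -0.50 in the mutant and 0.51 in the wild type (adjusted p of the difference 0.162). Its mutant call was lost without mutant E9.5 replicate 3 (-0.43). The same held with median centring, with Xist as a covariate and without both mutant arrays of the third scan. Unc5b, a netrin receptor of vessels, differed by -0.23 in the mutant and 0.26 in the wild type (adjusted p of the difference 0.291), and its call was lost without any 1 of the 6 mutant arrays, with values of -0.25 to -0.18.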

How the results depend on the processing

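The counts of genes higher and lower at E9.5 in the mutant stayed within 1.5 times of 1522 and 1475 except under these alternatives. Median centring gave 78 lower (and 77 lower in the wild type, against 1525). An Xist covariate gave 757 higher and 638 lower. Leaving out both mutant arrays of the third scan gave 748 and 684, and leaving out the arrays low in Xist gave 495 and 348; both were chosen after seeing the data and leave fewer arrays. Leaving out 1 mutant array at a time gave 1087 to 1460 higher and 1012 to 1244 lower. The test of the difference called 0 genes; array weights gave 2 higher, among them Hspa1a, and 3 lower, among them Plekhd1 and Pf4, and leaving out 1 array gave 0 to 1 higher and 0 to 5 lower, with Hspa1a higher without wild-type E8.5 replicate 2, Plekhd1 lower without mutant E9.5 replicate 2, and 5 lower without wild-type E9.5 replicate 3, Plekhd1, Rbm6, Mpo, Pf4 and 1 with no official symbol, all named after their values were seen. With the replicate block, which pairs arrays of a scan, the mutant counts were 1755 higher and 1724 lower and the difference had 1 lower gene, Plekhd1. Median centring kept 1378 of the 2997 mutant calls and turned the sign of 203. It moved 33 list medians by at least 1 SD of the mutant arrays about their group means, without a change of sign, and 2 by less. Among the named genes it turned the sign of Aen (0.0048), Arid1a (0.0039), Ccnb1 (0.0036), Cycs (0.097), Hsp90aa1 (0.019), Id1 (0.033) and Slc7a7 (0.0071). It also turned the sign of 16 list medians, of 0.22 for embryonic globins, 0.026 for red cell genes, 0.016 for blood progenitors, 0.11 for Notch and arterial genes, 0.042 for decidua, 0.14 for neural markers, 0.094 for heart muscle, 0.13 for SWI/SNF subunits, 0.054 for DNA replication, 0.14 for mitosis, 0.15 for glycolysis, 0.20 for heat shock, 0.17 for ribosomal proteins, 0.060 for Hox genes, 0.039 for DNA methylation and 0.071 for Polycomb. Of 217 named genes that were called, 94 kept their call in every alternative run. The causes were not tested. Signal near background limits dim genes such as Ppbp.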
